A study of Homo sapiens with 16 samples.

Results

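The ATP-binding cassette (ABC) genes of 2 pancreatic cancer cell lines, MiaPaCa2 and PANC1, were examined in untreated cells and after gemcitabine, genistein or both. Genes were taken whose symbol is ABC, a subfamily letter from A to G and a number, which gave 45 protein-coding genes among the 63677 gene identifiers of the count table. A further 8 entries of the same symbols lie on alternative sequences and held 0 counts in all libraries, and 1 matching symbol, ABCC13, is a pseudogene, so these were left out. Subfamily A held 12 of the genes, B 9, C 11, D 4, E 1, F 3 and G 5. Poly-A RNA of each line was sequenced from control cells, cells given 40 nmol/L gemcitabine, cells given 50 μmol/L genistein and cells given both for 24 h. Each of the 8 groups had 2 biological replicates, making 16 libraries. Gemcitabine is a deoxycytidine analogue used as chemotherapy for pancreatic ductal adenocarcinoma, and genistein is a soy isoflavone which the study tests as an enhancer of gemcitabine. Each line is a single established line, so a difference between them is a difference between these lines and not between kinds of tumour.

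ABC proteins bind ATP and, in most members, use it to move a substrate across a membrane. Several B, C and G members export drugs and glutathione conjugates from the cell and are known for their part in resistance to chemotherapy, while A members and others of G mainly move sterols and phospholipids. The E and F members have no membrane-spanning part and act in translation. Gemcitabine enters cells through nucleoside transporters, which are not ABC proteins, and some C members are known to export nucleoside monophosphates.

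Between 12943482 and 31991860 reads were counted on genes per library. Replicates differed by more than sampling noise in every group (chi-square per degree of freedom 2.70 to 32.0), most in the PANC1 controls. Keratins and other markers of ductal epithelium were above 3 counts in a library for 6 of 6 genes in PANC1 and 4 of 6 in MiaPaCa2, where CDH1 and EPCAM, the genes of 2 epithelial adhesion proteins, stayed at or below 3 counts. Acinar and islet markers (3 genes each) were at or below 3 counts in every library of both lines. Of the leukocyte and endothelial markers only CD14 and, in MiaPaCa2, CDH5 were above 3 counts, and the summed FPKM of the 2 lists did not exceed 4.98 and 1.72. All 6 ductal markers were called higher in PANC1 than in MiaPaCa2. After both drugs 3 of the 6 were called lower in PANC1, and 2 of 2 mesenchymal markers tested were called lower in MiaPaCa2. The part of these shifts in the ABC gene results was not tested. The strand setting of the counting is not given in the sources used here, so genes that overlap others need care. ABCB6 is affected most, with 54.6% of its exon length shared with another gene on the same strand. Counts divided by FPKM and depth give an implied length, which was set against the annotated exon length of each gene. For ABCB6 the implied length was 4.01% of the exon length, against a median of 40.3% over 31 members. ABCC6 has near-identical pseudogene copies, reads with several alignments had been removed, and its implied length was 7.13% of its exon length. The corresponding share is 3.72% for ABCC8. Such a share also depends on how far the annotated exon length exceeds the transcripts present, so it does not by itself show lost reads. ABCF2 shares 37.1% of its exon length with the overlapping gene ABCF2-H2BK1 on the same strand.

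Levels of different genes were set side by side as FPKM, in which the reads of a gene are divided by its transcript length and the depth of the library. The genes ABCF2, ABCF3 and ABCF1 held the 3 highest levels in untreated MiaPaCa2, with means of 71.0, 64.0 and 48.9 FPKM, and the ranges of the 2 libraries did not overlap between neighbours in that order. The rank of ABCF2 may depend on how reads in the part shared with ABCF2-H2BK1 were counted, which was not tested. Ranks between genes also depend on the length behind the FPKM. The implied length was 30.3% of the exon length for ABCF3 and 80.3% for ABCF1. Over all 16 libraries ABCF3 had fewer counts than ABCF1 (33114 against 55830). In untreated PANC1 the highest was ABCC1, at 97.5 and 123 FPKM, followed by ABCF3 at 77.9 and 92.8, and then ABCF1 and ABCF2, whose ranges overlapped. A mean above 1 FPKM was reached by 23 of the 45 genes in MiaPaCa2 and by 22 in PANC1. At the low end, 10 genes (ABCA9, ABCA12, ABCB4, ABCB5, ABCB11, ABCC9, ABCC12, ABCD2, ABCG5 and ABCG8) had at most 3 counts in every one of the 16 libraries, so their expression was not detectable at this depth. ABCA13, ABCB1 and ABCC6 exceeded 3 counts only in PANC1, and ABCA6 and ABCA8 only in MiaPaCa2.

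**Figure D1:**
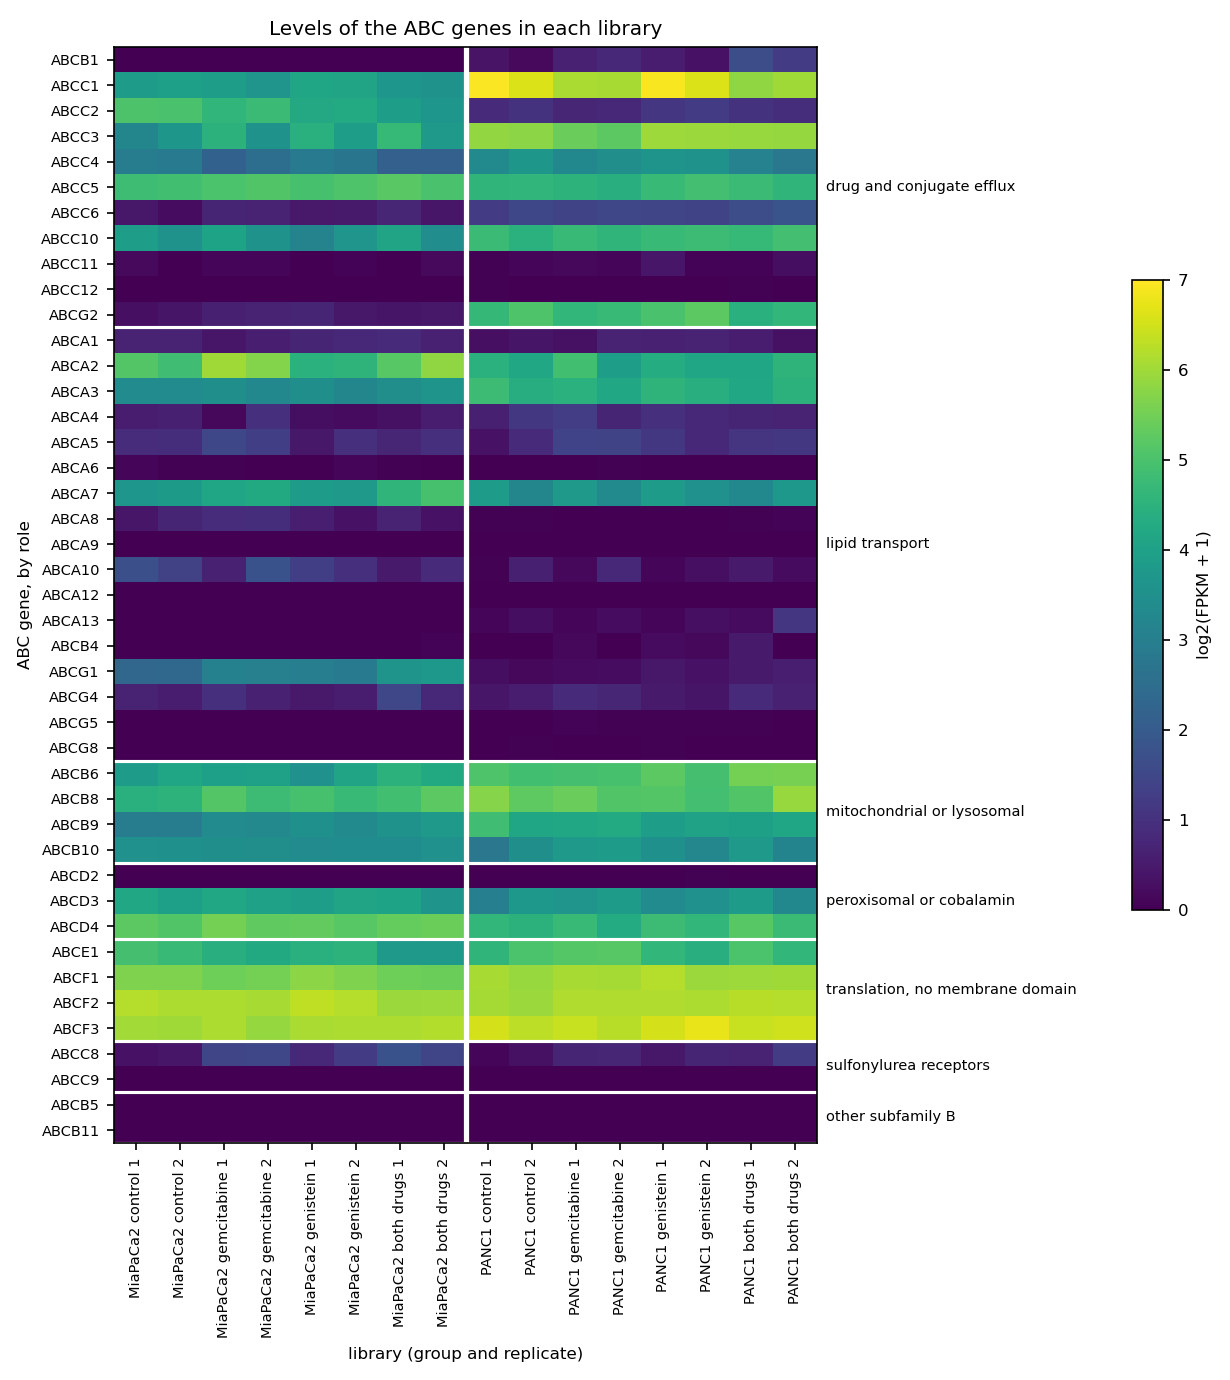
Level of 43 ABC genes (rows, grouped by role) in each of the 16 libraries (columns, group and replicate), as log2(FPKM + 1). The ABCF genes are high in both lines, ABCC1 and ABCG2 stand out in PANC1 and ABCC2 and ABCG1 in MiaPaCa2.

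The first comparison asked how the untreated lines differ. A gene was called where limma-voom gave an adjusted p of at most 0.05 over all genes tested, a log2 fold change of at least 0.4 in size and a mean FPKM above 1 in either control. Of the 45 genes 33 passed the filter on low counts and 18 were called, 10 higher and 8 lower in PANC1. This is 54.5% of those tested, and over all genes 52.3% were called, 27.9% higher and 24.3% lower. The adjusted p alone was passed by 27 of the 33 and by 63.3% of all genes. The median log2 difference, PANC1 minus MiaPaCa2, was -0.03 over the 33 genes and 0.06 over all genes tested.

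The 11 drug and conjugate efflux genes differed most, with 6 called higher and 2 called lower in PANC1 among the 9 tested and a median log2 difference of 2.17. Summed over the 11 genes, the level was 102.2 and 103.97 FPKM in the MiaPaCa2 controls and 266 and 243 FPKM in the PANC1 controls. ABCC1, which encodes the multidrug resistance protein MRP1, was at 13.3 and 14.6 FPKM in MiaPaCa2 and at 123 and 97.5 FPKM in PANC1. ABCG2, which encodes the breast cancer resistance protein, was at 0.219 and 0.309 FPKM (20 and 13 counts) in MiaPaCa2 and at 24.5 and 32.4 FPKM (1420 and 2521 counts) in PANC1. The groups lay far apart for both genes, which lie on GRCh37 at chr16:16042995-16237114 (ABCC1, ENSG00000103222, plus strand) and chr4:89011302-89152780 (ABCG2, ENSG00000118777, minus strand). The log2 difference was 2.81 (SE 0.11, adjusted p = 1.86e-10) for ABCC1 and 6.04 (SE 0.22, adjusted p = 1.31e-10) for ABCG2, or 65.8-fold. ABCC3 (MRP3, a basolateral exporter of conjugates) rose in the same direction by 2.17 (SE 0.13, adjusted p = 1.36e-08), ABCC10 (MRP7) by 1.28 (SE 0.17, adjusted p = 2.1e-05) and ABCC4 (MRP4, an exporter of cyclic nucleotides) by 0.52 (SE 0.14, adjusted p = 0.00579). The ABCC4 call was lost without PANC1 control replicate 2 (adjusted p = 0.0681) and without MiaPaCa2 control replicate 2 (adjusted p = 0.0726).

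ABCC2, the gene of the apical conjugate exporter MRP2, showed the opposite order. The gene (ENSG00000023839, chr10:101542397-101612351, plus strand) was at 31.8 and 31.1 FPKM in MiaPaCa2 and at 0.805 and 1.04 FPKM in PANC1, a log2 difference of -5.08 (SE 0.12, adjusted p = 4.06e-12). ABCC5 (MRP5, an exporter of cyclic nucleotides and nucleotide analogues) was close in the lines, at 27.5 and 28.3 FPKM against 23.0 and 23.5, and was still called at -0.48 (SE 0.07, adjusted p = 5.61e-05). ABCB1 (ENSG00000085563, chr7:87132333-87342639, minus strand), which encodes P-glycoprotein, had 0 counts in all 8 MiaPaCa2 libraries and 5 and 10 counts in the PANC1 controls. Set against a floor of 3 counts per library it was at least 1.39-fold higher in PANC1. ABCC6, known for its part in ATP release, had 0 counts in both MiaPaCa2 controls and 16 and 25 in PANC1, at least 3.90-fold higher. ABCC11 (MRP8) had 6 counts over the PANC1 controls against 1 over the MiaPaCa2 controls, a ratio of 3.48 with a 95% interval of 0.422 to 160 that covers counting error only.

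**Figure D2:**
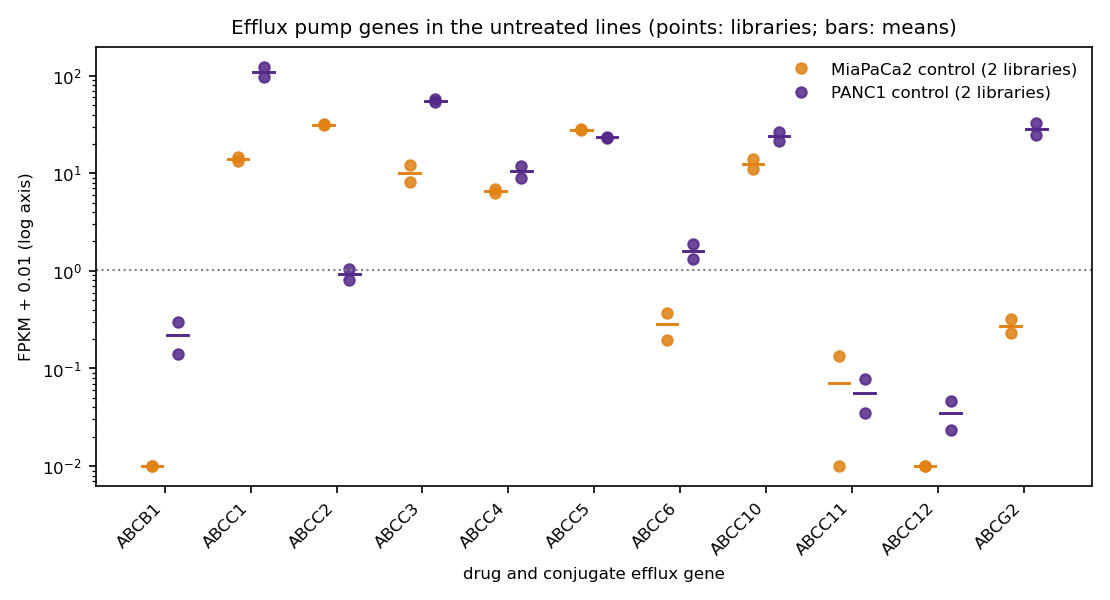
FPKM + 0.01 (log axis) of the 11 drug and conjugate efflux genes in the untreated lines, with a point for each of the 2 libraries and a bar for the mean, and a dotted line at 1 FPKM. ABCC1, ABCC3 and ABCG2 are higher in PANC1 and ABCC2 is higher in MiaPaCa2, and ABCB1 is below 1 FPKM in both lines.

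Promoter windows are shown for the efflux genes that the results turn on and that have an entry in the RefSeq promoter table, as the 250 bases before the annotated gene start in GRCh38.p14, given 5′ to 3′ on the strand of the gene. Of the 45 genes 35 had an entry. ABCA4, ABCA8, ABCB4, ABCB5, ABCC1, ABCC3, ABCC8 and ABCG1 were among those with none. Capitals mark a match on either strand to one of 6 motifs, CCAAT, the GC box GGGCGG, the TATA box TATAAA, the E-box CACGTG, the antioxidant response core TGACNNNGC and the cAMP response element TGACGTCA. The gene start is the outermost one annotated, and transcripts that start further in were not covered.
ABCB1: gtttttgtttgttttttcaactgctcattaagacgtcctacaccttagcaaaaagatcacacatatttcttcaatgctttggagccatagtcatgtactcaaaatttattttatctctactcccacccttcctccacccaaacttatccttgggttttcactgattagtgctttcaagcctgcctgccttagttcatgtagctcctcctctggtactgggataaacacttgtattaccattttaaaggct
ABCG2: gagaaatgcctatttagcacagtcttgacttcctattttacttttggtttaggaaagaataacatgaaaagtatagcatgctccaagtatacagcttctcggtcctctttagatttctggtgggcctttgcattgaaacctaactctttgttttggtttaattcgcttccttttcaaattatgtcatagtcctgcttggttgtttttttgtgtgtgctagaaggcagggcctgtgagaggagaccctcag
ABCC2: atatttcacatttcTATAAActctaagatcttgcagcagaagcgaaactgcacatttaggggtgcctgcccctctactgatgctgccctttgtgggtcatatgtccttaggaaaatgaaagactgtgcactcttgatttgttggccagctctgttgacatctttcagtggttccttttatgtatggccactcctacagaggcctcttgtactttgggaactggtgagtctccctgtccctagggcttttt
ABCC4: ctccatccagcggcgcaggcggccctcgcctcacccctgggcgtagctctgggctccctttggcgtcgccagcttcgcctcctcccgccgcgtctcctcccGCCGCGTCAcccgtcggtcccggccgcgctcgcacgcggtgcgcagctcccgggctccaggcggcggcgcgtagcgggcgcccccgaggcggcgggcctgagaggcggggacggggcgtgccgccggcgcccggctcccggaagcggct

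The ABCB1 window lies at chr7:87713296-87713545 on the minus strand, that of ABCG2 at chr4:88231627-88231876 on the minus strand, that of ABCC2 at chr10:99782390-99782639 on the plus strand and that of ABCC4 at chr13:95301452-95301701 on the minus strand. The ABCB1 and ABCG2 windows held none of the 6 motifs and have a GC content of 39.2% and 40.0%. The ABCC2 window, with 45.6% GC, held a TATA box that begins 236 bases before the start. The ABCC4 window, with 80.4% GC, held the antioxidant response core on the opposite strand, between 149 and 141 bases before the start. That core was found in 6 of the 35 ABC promoters and in 10.9% of all 35116 promoters of this length, and the TATA box in 5 of 35 and in 10.7%. The GC box was found in 18 of 35 against 42.6%, CCAAT in 6 of 35 against 32.0% and the E-box in 4 of 35 against 6.34%. These matches describe letters, and no binding was measured.

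Among the 17 lipid transporters 11 were tested, with 1 called higher and 3 called lower in PANC1. ABCG1, which passes cholesterol to high-density lipoprotein, was at 4.01 and 4.09 FPKM in MiaPaCa2 and at 0.191 and 0.104 FPKM in PANC1. The log2 difference was -4.92 (SE 0.29, adjusted p = 1.04e-08). ABCA1, the partner of ABCG1 in cholesterol efflux, was below 1 FPKM in both lines and passed the adjusted p alone at -1.04 (SE 0.22, adjusted p = 0.000907). ABCA10 was lower in PANC1 by -3.78 on the log2 scale (SE 0.44, adjusted p = 5.61e-06), with 3 and 7 counts against 47 and 36. ABCA2, an endosomal lipid transporter, was called at -0.72 (SE 0.22, adjusted p = 0.0112), and lost that call without PANC1 control replicate 2 (adjusted p = 0.136) and with the replicate block (adjusted p = 0.0592). ABCA3, which loads phospholipid into lamellar bodies in the lung, was the gene called higher, at 1.10 (SE 0.18, adjusted p = 0.000148). ABCA8 had 29 and 18 counts in MiaPaCa2 and 0 in both PANC1 controls, at least 12.7-fold higher in MiaPaCa2. ABCA13 had 10 and 17 counts in PANC1 and 0 in MiaPaCa2, at least 2.55-fold higher in PANC1.

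Of the organelle transporters, 2 D members were called lower in PANC1, the peroxisomal ABCD3 by -0.77 (SE 0.22, adjusted p = 0.00705) and the lysosomal cobalamin transporter ABCD4 by -0.60 (SE 0.14, adjusted p = 0.00195). ABCB9, a lysosomal peptide transporter, was higher in PANC1 by 1.52 (SE 0.24, adjusted p = 8.17e-05) and ABCB6, a porphyrin transporter, by 0.93 (SE 0.22, adjusted p = 0.0026). ABCB10, of the mitochondrial inner membrane, was lower by -0.53 (SE 0.16, adjusted p = 0.0124). The calls of ABCD3 and ABCB10 were lost without PANC1 control replicate 1 (adjusted p = 0.0571 and 0.0965). None of the 4 translation genes was called, and 3 of them passed the adjusted p with log2 differences between -0.23 and 0.37.

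The drug comparisons then asked which of these genes each treatment changed. Here the mean FPKM above 1 was required in the treated group, and each line was fitted on its own 8 libraries. In bulk RNA a change in the number of cells that express a gene and a change in RNA per cell cannot be told apart. In MiaPaCa2, where 30 of the 45 genes were tested, gemcitabine monotreatment changed 9, and 29.6% of all genes were called. Of the 9, 6 were higher (15% of all genes were) and 3 lower (14.6% of all genes were). Genistein changed 3, beside 8.31% of all genes, with 2 higher (4.18% of all genes) and 1 lower (4.13%). Both drugs changed 12, beside 40.5%, with 7 higher (20.3%) and 5 lower (20.2%). Co-treatment set against gemcitabine changed 4, beside 5.88%, with 2 higher (4.05%) and 2 lower (1.83%). The adjusted p alone was passed by 13 of the 30 for gemcitabine (39% of all genes), 3 for genistein (11.4%), 22 for both drugs (51.6%) and 4 for both against gemcitabine (7.34%).

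In PANC1, where 31 were tested, gemcitabine changed 2, beside 7.52% of all genes, with 0 higher (4.49%) and 2 lower (3.03%). Both drugs changed 5, beside 17.1%, with 2 higher (10.2%) and 3 lower (6.9%). The adjusted p alone was passed by 4 for gemcitabine (8.5% of all genes) and 8 for both drugs (19.8%). Limma-voom called none of the 31 for genistein in PANC1, where 0.0591% of all genes were called, and 5 had an unadjusted p under 0.05. The edgeR quasi-likelihood test and DESeq2 also called 0. For co-treatment against gemcitabine in PANC1 it again called none, beside 0.0177% of all genes (0.0118% higher and 0.00591% lower), with 7 at an unadjusted p under 0.05, 0 by edgeR and 1 by DESeq2. The ABC genes called made up 30.0% of those tested for gemcitabine, 10.0% for genistein and 40.0% for both drugs in MiaPaCa2 and 6.45% and 16.1% for gemcitabine and both drugs in PANC1, near the shares of all genes. For both drugs against gemcitabine in MiaPaCa2 the share was 13.3% beside 5.88%, on 4 genes. By the adjusted p alone it was 73.3% beside 51.6% for both drugs in MiaPaCa2. With a correction for GC content the counts in PANC1 were 5 for gemcitabine, 1 for genistein and 4 for co-treatment against gemcitabine. The shares of all genes above are of the fit without that correction, so they cannot be set beside these counts. A fit to log2(FPKM + 1) with limma-trend lost 47 of the 89 changes of singly reported genes that passed the adjusted p over all comparisons. The called ones it lost included ABCA2, ABCB10 and ABCC5 between the lines, ABCA7, ABCB9 and ABCC2 for gemcitabine, ABCC3 and ABCG1 for genistein, ABCA2, ABCC1 and ABCC3 for both drugs and ABCC3, ABCE1 and ABCG1 for both against gemcitabine in MiaPaCa2, and ABCC1 and ABCC3 for gemcitabine and ABCC4, ABCC6 and ABCG2 for both drugs in PANC1.

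**Figure D3:**
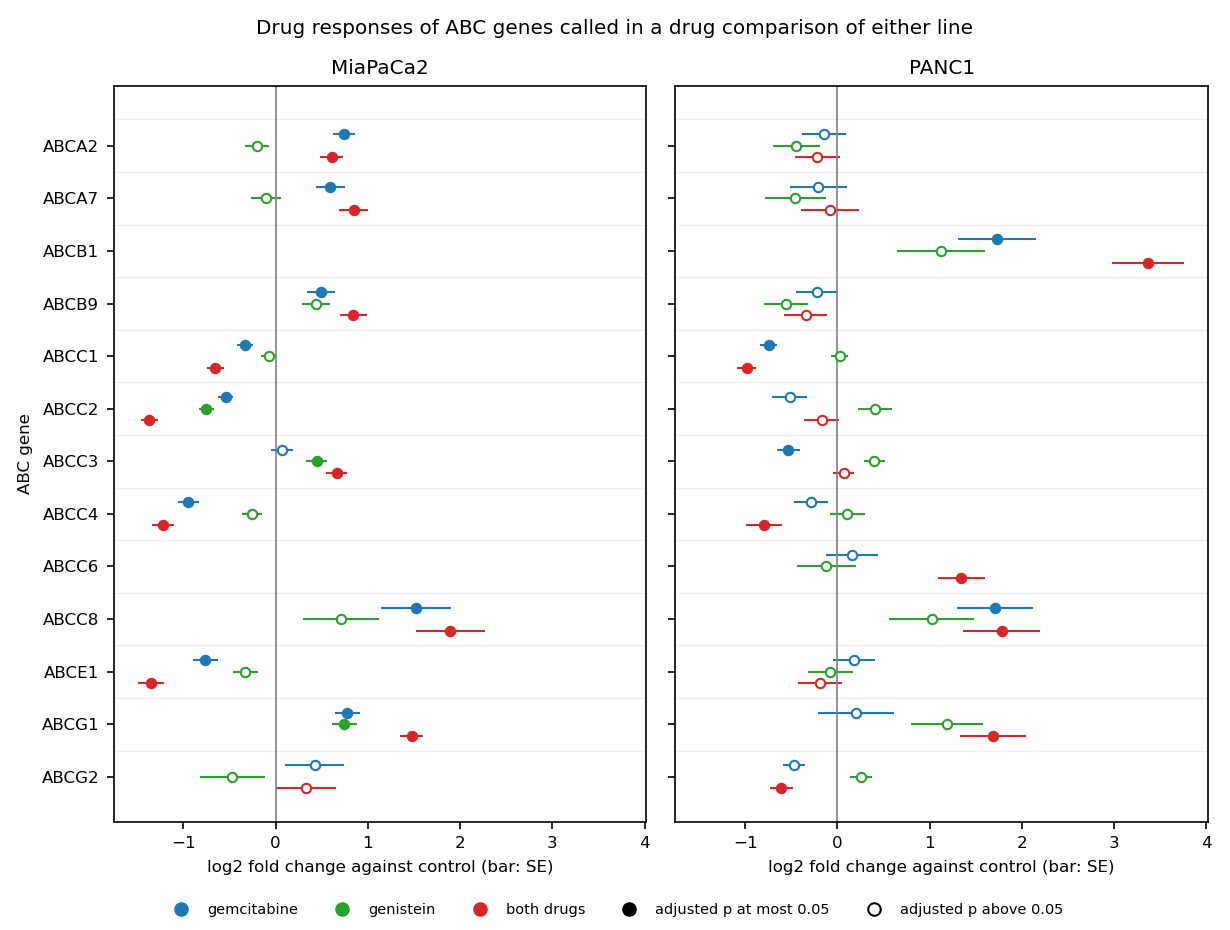
Log2 fold change against control (x axis, bars are SE) after gemcitabine, genistein or both drugs for 13 ABC genes called in a drug comparison of either line, with filled points at an adjusted p of at most 0.05. ABCC2, ABCC4 and ABCE1 lie below 0 and ABCG1 above it in MiaPaCa2, and ABCB1 rises and ABCC1 falls in PANC1. ABCB1 and ABCC6 were not tested in MiaPaCa2, where their counts were at or near 0.

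Among the efflux genes of MiaPaCa2, ABCC2 fell under every treatment. It was at 31.8 and 31.1 FPKM in the controls, 23.4 and 26.2 after gemcitabine, 17.8 and 18.6 after genistein and 13.9 and 11.8 after both, and no group overlapped another. The log2 fold changes against control were -0.54 (SE 0.08, adjusted p = 0.000381), -0.75 (SE 0.09, adjusted p = 0.000678) and -1.37 (SE 0.09, adjusted p = 2.98e-07). Co-treatment was also lower than gemcitabine, by -0.83 (SE 0.09, adjusted p = 0.000448). ABCC4 was at 6.81 and 6.31 FPKM in the controls, 3.51 and 4.75 after gemcitabine, 6.31 and 5.65 after genistein and 3.44 and 3.39 after both. It fell by 0.94 on the log2 scale after gemcitabine (SE 0.12, adjusted p = 7.54e-05) and by 1.22 after both (SE 0.12, adjusted p = 5.2e-06). The genistein value of -0.26 (SE 0.11) did not pass (adjusted p = 0.154).

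ABCC1 and ABCC3 moved apart in MiaPaCa2. ABCC1 had a log2 fold change of -0.33 after gemcitabine (SE 0.09, adjusted p = 0.011), short of the fold threshold and lost without gemcitabine replicate 2 (adjusted p = 0.0842), control replicate 1 (adjusted p = 0.0705) or control replicate 2 (adjusted p = 0.0758). It was called after both at -0.65 (SE 0.09, adjusted p = 8.55e-05). ABCC3 was called higher after genistein at 0.44 (SE 0.12, adjusted p = 0.0285), after both at 0.66 (SE 0.11, adjusted p = 0.000398) and after both against gemcitabine at 0.59 (SE 0.11, adjusted p = 0.0085). Its genistein call was lost on leaving out any one of the 4 libraries compared, with adjusted p of 0.139 and 0.0801 without genistein replicates 1 and 2 and 0.259 and 0.101 without control replicates 1 and 2. The call against gemcitabine was lost without gemcitabine replicate 1 (adjusted p = 0.0644) or 2 (adjusted p = 0.114). ABCC5 and ABCC10 were not called under any treatment in either line, and ABCC10 passed the adjusted p only after both drugs in MiaPaCa2, at 0.30 (SE 0.12, adjusted p = 0.0482) and not after GC correction (adjusted p = 0.81) or without both drugs replicate 2, control replicate 1 or control replicate 2 (adjusted p = 0.116, 0.204 and 0.13). ABCG2 stayed between 9 and 29 counts in all 8 MiaPaCa2 libraries, and no treatment passed.

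In PANC1 the most abundant pump fell. ABCC1 was at 123 and 97.5 FPKM in the controls, 67.9 and 67.1 after gemcitabine, 122 and 97.4 after genistein and 55.9 and 62.5 after both. The libraries given gemcitabine, alone or with genistein, thus lay below all 4 without it. The log2 fold change was -0.75 after gemcitabine (SE 0.10, adjusted p = 0.00658) and -0.98 after both (SE 0.10, adjusted p = 0.00118). The first was lost without gemcitabine replicate 1 (adjusted p = 0.0595) or 2 (adjusted p = 0.0938). The sum over the 11 efflux genes followed, at 266 and 243 FPKM in the controls, 193 and 185 after gemcitabine, 281 and 265 after genistein and 201 and 207 after both, and the sums in MiaPaCa2 ran from 80.6 to 110.6 over all 8 libraries.

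ABCC3 fell in PANC1 after gemcitabine, from 57.2 and 53.6 FPKM to 41.5 and 36.4, with a log2 fold change of -0.53 (SE 0.12, adjusted p = 0.0364). After both drugs it was at 59.8 and 57.9 FPKM, and the value against control of 0.07 (SE 0.12) did not pass. Set directly against gemcitabine, co-treatment gave ABCC3 0.60, which did not pass (adjusted p = 0.124). It was called there with DESeq2 (adjusted p = 0.0216) and after GC correction without and with the replicate block (adjusted p = 0.0102 and 0.0291). The gemcitabine call was lost without gemcitabine replicate 1 (adjusted p = 0.181) or 2 (adjusted p = 0.247), without control replicate 1 (adjusted p = 0.0788), with the replicate block (adjusted p = 0.0763) and with scaling by library size alone (adjusted p = 0.0512). ABCC4 was called lower after both drugs at -0.79 (SE 0.20, adjusted p = 0.0273). That call was lost without both drugs replicate 2 (adjusted p = 0.113) or control replicate 2 (adjusted p = 0.0649), with the block (adjusted p = 0.055) and with library size alone (adjusted p = 0.0649). ABCG2 was at 24.5 and 32.4 FPKM in the controls, 23.7 and 25.1 after gemcitabine, 30.8 and 36.7 after genistein and 20.9 and 23.6 after both. It was called lower after both at -0.61 (SE 0.12, adjusted p = 0.0132), and was lost without both drugs replicate 1 (adjusted p = 0.0508). After gemcitabine it had -0.47 (SE 0.12) and an adjusted p of 0.0504, and was called after GC correction at -0.56 (adjusted p = 0.00233).

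ABCB1 went the other way in PANC1. Its counts were 5 and 10 in the controls, 20 and 18 after gemcitabine, 7 and 9 after genistein and 60 and 44 after both, or 0.287 and 0.131, 0.547 and 0.706, 0.474 and 0.270, and 2.15 and 1.35 FPKM. The co-treated libraries were above all others. The log2 fold change after both drugs was 3.37 (SE 0.39, adjusted p = 0.0017), or 10.3-fold, and against gemcitabine it was 1.64 (SE 0.31, adjusted p = 0.119), which passed after GC correction at 1.76 (adjusted p = 0.00534). The change against control held under all 9 alternatives and with each library left out. After gemcitabine it was 1.73 (SE 0.42, adjusted p = 0.0467) with a mean FPKM under 1, and this did not pass without any one of the 4 libraries (adjusted p between 0.0824 and 0.207), without the low-count filter (adjusted p = 0.0747) or with the block (adjusted p = 0.076). In MiaPaCa2 all 8 libraries had 0 counts of ABCB1, so that after both drugs PANC1 was at least 15.6-fold higher. ABCC6 was called higher after both drugs in PANC1 at 1.34 (SE 0.25, adjusted p = 0.0101) from 16 and 25 counts in the controls to 28 and 39. It was lost with DESeq2 (adjusted p = 0.0545) and without both drugs replicate 2 (adjusted p = 0.0528).

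**Figure D4:**
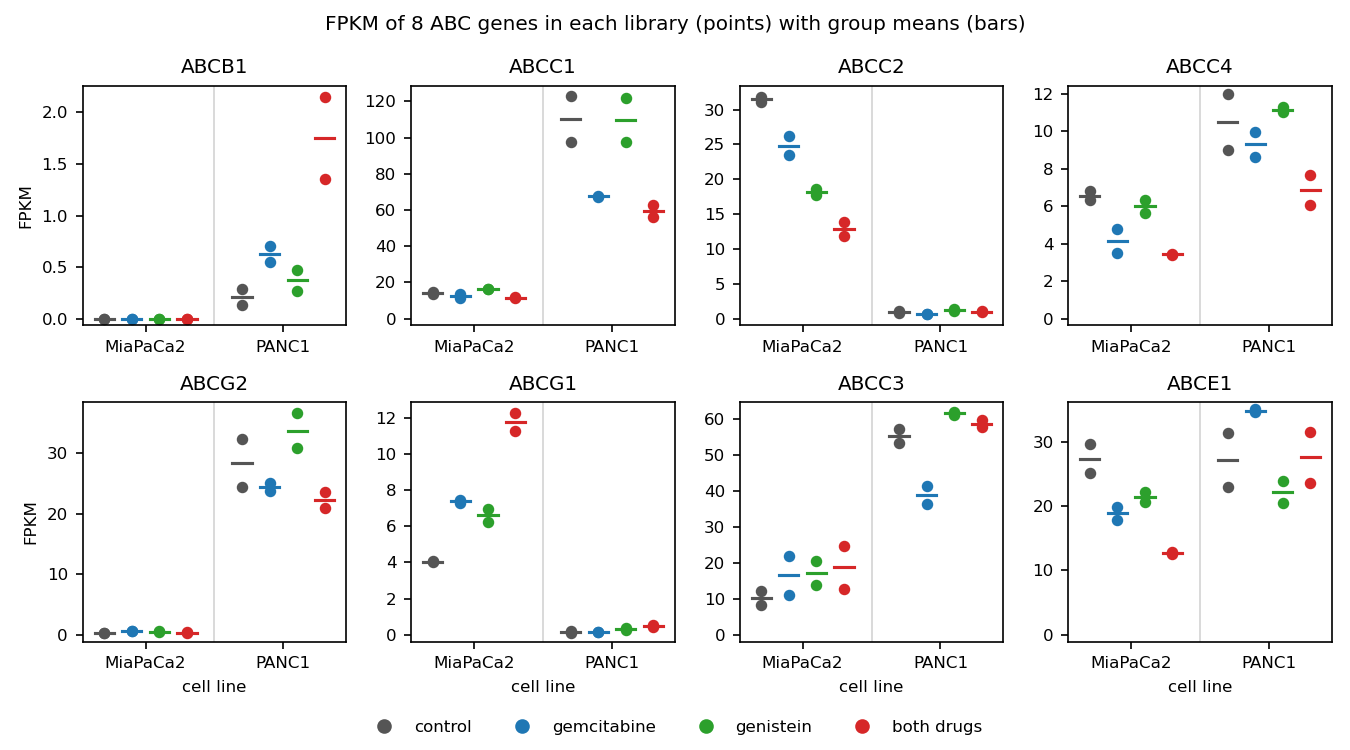
FPKM of 8 ABC genes in each library (points) with the mean of each group of 2 (bars), by line and treatment. ABCB1 reaches 2.15 and 1.35 FPKM in the co-treated PANC1 libraries, ABCC1 falls in PANC1 with gemcitabine, and ABCC2, ABCC4 and ABCE1 fall and ABCG1 rises in MiaPaCa2.

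Of the 10 lipid transporters tested in MiaPaCa2, 3 were called higher after gemcitabine (15% of all genes were), 1 after genistein (4.18%) and 3 after both (20.3%), and none was called lower, beside 14.6%, 4.13% and 20.2% of all genes. After GC correction gemcitabine also gave ABCA3 called lower at -0.40 (adjusted p = 0.000637) and ABCA5 called higher at 0.88 (adjusted p = 0.0187). ABCA5 was likewise called higher after gemcitabine in PANC1 with that correction, at 0.91 (adjusted p = 0.0197). ABCG1 was at 4.01 and 4.09 FPKM in the controls, 7.48 and 7.29 after gemcitabine, 6.97 and 6.26 after genistein and 11.3 and 12.3 after both. The 4 groups did not overlap. Its log2 fold changes were 0.78 (SE 0.13, adjusted p = 0.000667), 0.75 (SE 0.13, adjusted p = 0.00542) and 1.47 (SE 0.13, adjusted p = 1.89e-06), and 0.70 for both drugs against gemcitabine (SE 0.11, adjusted p = 0.00415). The genistein value did not pass without MiaPaCa2 control replicate 1 (adjusted p = 0.0886), nor the value against gemcitabine without gemcitabine replicate 1 (adjusted p = 0.0687) or 2 (adjusted p = 0.0622). In PANC1 ABCG1 rose after both drugs from 13 and 11 counts to 22 and 27, at 1.68 (SE 0.36, adjusted p = 0.0159) and below 1 FPKM, and was lost with DESeq2 (adjusted p = 0.0556) and without both drugs replicate 2 (adjusted p = 0.0529) or control replicate 2 (adjusted p = 0.0896). ABCA1 did not follow ABCG1. It passed the adjusted p only after gemcitabine in MiaPaCa2, where it was lower at -0.75 (SE 0.19, adjusted p = 0.00836), and not without gemcitabine replicate 1 (adjusted p = 0.0719) or control replicate 2 (adjusted p = 0.0591).

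ABCA2 was at 33.7 and 27.7 FPKM in the MiaPaCa2 controls, 63.1 and 50.8 after gemcitabine, 21.2 and 22.6 after genistein and 35.3 and 56.3 after both. The gemcitabine libraries were above the controls and the genistein libraries below them, but the genistein change did not pass the adjusted p. It was called higher after gemcitabine at 0.74 (SE 0.12, adjusted p = 0.000539) and after both at 0.61 (SE 0.12, adjusted p = 0.00119). After GC correction the second did not pass (adjusted p = 0.0917). The gemcitabine value of ABCA2 passed the adjusted p under all 9 alternatives. It ran there from 0.28 to 0.87, and its low end was short of the fold threshold. ABCA7, a phospholipid transporter related to ABCA1, was at 11.7 and 13.1 FPKM in the controls, 16.8 and 18.1 after gemcitabine, 13.5 and 12.8 after genistein and 23.1 and 30.3 after both. It was called at 0.59 after gemcitabine (SE 0.16, adjusted p = 0.0107) and at 0.85 after both (SE 0.16, adjusted p = 0.00067). The gemcitabine call was lost after GC correction (adjusted p = 0.0613) and without gemcitabine replicate 1 (adjusted p = 0.121) or control replicate 1 (adjusted p = 0.162). ABCA4, ABCA8 and ABCA10 passed the adjusted p as lower after both drugs in MiaPaCa2 at means below 1 FPKM, with log2 fold changes between -1.46 and -1.25 and at most 19 counts in a treated library. ABCA4 did not pass without both drugs replicate 1 (adjusted p = 0.142), control replicate 1 (adjusted p = 0.0612) or control replicate 2 (adjusted p = 0.0699), nor ABCA8 without both drugs replicate 2 (adjusted p = 0.15) or control replicate 1 (adjusted p = 0.0732), and ABCA10 not after GC correction (adjusted p = 0.0622).

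Of the 5 mitochondrial or lysosomal B members, ABCB9 rose in MiaPaCa2 from 6.76 and 6.74 FPKM to 9.41 and 8.87 after gemcitabine and to 11.2 and 12.8 after both. The log2 fold changes were 0.49 (SE 0.15, adjusted p = 0.0221) and 0.84 (SE 0.15, adjusted p = 0.000462). The gemcitabine call was lost without gemcitabine replicate 1 (adjusted p = 0.151) or control replicate 1 (adjusted p = 0.204) and after GC correction (adjusted p = 0.0523). No B member of this list was called under a drug in PANC1. Of the D members ABCD3 and ABCD4 were not called under any drug. After both drugs in MiaPaCa2 they passed the adjusted p at -0.35 and 0.33, short of the fold threshold. These values were not kept under 7 and 4 of the 9 alternatives, and GC correction reversed that of ABCD3.

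ABCE1, which splits the ribosome after termination so that it can be used again, fell in MiaPaCa2. It was at 29.8 and 25.1 FPKM in the controls, 19.9 and 17.9 after gemcitabine, 20.6 and 22.2 after genistein and 12.8 and 12.5 after both, and the co-treated libraries were below all others. The log2 fold changes were -0.76 after gemcitabine (SE 0.13, adjusted p = 0.000915), -0.33 after genistein (SE 0.13, adjusted p = 0.127), which did not pass, and -1.35 after both (SE 0.14, adjusted p = 9.12e-06). Against gemcitabine co-treatment gave -0.59 (SE 0.15, adjusted p = 0.0328), which was lost without both drugs replicate 2 (adjusted p = 0.183) and without gemcitabine replicate 1 (adjusted p = 0.247) or 2 (adjusted p = 0.105). Over the 9 alternatives ABCE1 in MiaPaCa2 ran from -0.76 to -0.26 after gemcitabine and from -1.35 to -0.60 after both. Against gemcitabine it ran from -0.62 to -0.33. The weakest values after gemcitabine and against gemcitabine were thus short of the fold threshold. In PANC1 the levels of ABCE1 ran from 20.5 to 35.1 FPKM, groups overlapped, and no treatment passed. ABCF1 and ABCF2 passed the adjusted p after both drugs in MiaPaCa2 with small values of -0.36 (SE 0.08, adjusted p = 0.00187) and -0.33 (SE 0.08, adjusted p = 0.00306), short of the fold threshold, and ABCF3 had -0.03 (SE 0.09, adjusted p = 0.796). The promoter window of ABCE1 is shown because it was the 1 ABC promoter of 35 with the cAMP response element, which 1.65% of all promoters held. It lies at chr4:145098061-145098310 on the plus strand of GRCh38.p14, with 60.0% GC and the match between 98 and 91 bases before the start.
ABCE1: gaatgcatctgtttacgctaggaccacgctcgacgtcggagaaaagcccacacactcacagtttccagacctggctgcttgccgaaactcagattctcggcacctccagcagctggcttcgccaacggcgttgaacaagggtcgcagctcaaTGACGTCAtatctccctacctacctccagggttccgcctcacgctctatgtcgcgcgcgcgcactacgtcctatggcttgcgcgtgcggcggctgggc

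ABCC8 encodes the sulfonylurea receptor of the beta cell potassium channel and transports no known drug. It had 8 and 7 counts in the MiaPaCa2 controls, 23 and 29 after gemcitabine, 10 and 19 after genistein and 33 and 28 after both, and 5 and 8 counts in the PANC1 controls against 16 and 17, 7 and 6, and 10 and 21. In both lines the libraries given gemcitabine were above the controls. In MiaPaCa2 it was called after gemcitabine at 1.52 (SE 0.38, adjusted p = 0.0075) and after both at 1.89 (SE 0.37, adjusted p = 0.00102), the first not without control replicate 1 (adjusted p = 0.0723). In PANC1 it passed the adjusted p below 1 FPKM at 1.71 (SE 0.41, adjusted p = 0.0432) and 1.78 (SE 0.42, adjusted p = 0.0225). The first was lost without any one of the 4 libraries (adjusted p between 0.0993 and 0.208) and with the block (adjusted p = 0.0878), and the second without both drugs replicate 2 (adjusted p = 0.107), control replicate 1 (adjusted p = 0.0636) or control replicate 2 (adjusted p = 0.0846) and with DESeq2 (adjusted p = 0.0666). KCNJ11, the channel gene it pairs with, was tested in both lines and passed under no drug.

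Whether a response differed between the lines was tested in 1 model of all 16 libraries, by the adjusted p alone. Differences are the log2 response in PANC1 minus that in MiaPaCa2, so a value below 0 can be a deeper fall or a smaller rise in PANC1. For gemcitabine 5 of 33 ABC genes (15.2%) passed, all with a difference below 0, beside 15.3% of all genes in either direction. The share of all genes below 0 is not given here. The median difference was -0.21 over the 33 genes and -0.08 over all genes. For genistein limma-voom passed 0, with 4 at an unadjusted p under 0.05 and 1 each by edgeR and DESeq2, beside 0.0336% of all genes. For both drugs, a contrast added after values had been seen, 9 (27.3%) passed, 5 with a difference above 0 and 4 below. Of all genes 18.1% passed in either direction, without a split here. The median difference was 0.10 over the 33 genes and -0.05 over all genes. ABCC2 differed by 1.11 for both drugs (SE 0.18, adjusted p = 0.00133) and by 1.10 for genistein, which did not pass (SE 0.18, adjusted p = 0.0619). The genistein difference of ABCC2 did pass with edgeR (adjusted p = 0.019) and DESeq2 (adjusted p = 1.15e-05). It also passed in limma-voom after GC correction without and with the replicate block (adjusted p = 0.00256 and 0.0138). The contrasts for genistein and both drugs share the control libraries. ABCB1 and ABCA8 are 2 of the 9, and each had at most 3 counts in every library of 1 line.

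Whether co-treatment differed from the sum of the single responses on the log2 scale was tested within each line. By limma-voom 0 of 30 ABC genes passed in MiaPaCa2, where 0.0249% of all genes did, and 0 of 31 in PANC1, where no gene did. In each line 1 ABC gene had an unadjusted p under 0.05, and edgeR and DESeq2 each passed 0.

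Genes that work beside the ABC members were counted by the same rule after both drugs, for which 20.3% of all genes were called higher and 20.2% lower in MiaPaCa2, and 10.2% higher and 6.9% lower in PANC1. Of 9 sterol efflux partners and receptors, 6 of the 8 tested were called higher in MiaPaCa2 and none lower, with a median log2 fold change of 0.54 beside -0.01 over all genes, and in PANC1 2 were called higher and 1 lower of 9. NR1H3, the liver X receptor that drives ABCG1 and ABCA1, had 1.08 in MiaPaCa2 (SE 0.19, adjusted p = 0.000469) and 0.61 in PANC1 (SE 0.20, adjusted p = 0.0675). LPCAT3, another liver X receptor target, had 1.09 in MiaPaCa2 (SE 0.09, adjusted p = 1.39e-06) and 0.26 in PANC1 (SE 0.10, adjusted p = 0.124). ABCA1 did not pass after both drugs in either line. Single values of the other listed genes are not given here, and a part of the receptor was not tested. Of 5 xenobiotic sensors NR1I2 and NR1I3 were at most at 2 counts. Of the 3 tested 2 were called higher in MiaPaCa2 and 1 in PANC1. AHR, a receptor for aromatic ligands, was among them in both lines, at 1.87 (SE 0.17, adjusted p = 3.36e-06) and 0.92 (SE 0.23, adjusted p = 0.026). Of 7 genes of glutathione supply and conjugation 3 were called higher and 1 lower in MiaPaCa2 and 1 higher in PANC1, and of 6 ribosome recycling and initiation partners 3 were called lower in MiaPaCa2 and 0 in PANC1. ETF1, the termination factor that acts before ABCE1, had -0.83 in MiaPaCa2 (SE 0.09, adjusted p = 1.62e-05) and -0.26 in PANC1 (SE 0.15, adjusted p = 0.261). Of 4 peroxisome carriers 1 was called lower in each line. TAP1 and TAP2, the ABC peptide transporters of antigen presentation whose symbols fall outside the pattern, were called higher in MiaPaCa2 at 0.51 (SE 0.09, adjusted p = 0.000361) and 0.63 (SE 0.12, adjusted p = 0.000694), and neither passed in PANC1.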

How the data were processed

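Per the labels and the study's methods, poly-A RNA was made into stranded libraries and read as 50-base single reads. The authors aligned reads to GRCh37 with TopHat 2.0.4, removed reads with several alignments with Picard 1.29, and deposited gene counts from HTSeq 0.6.1 and FPKM from Cufflinks 2.1.1. The annotation release and strand setting are not given in the sources used here. Each library held 12943482 to 31991860 counts, and intervals and floors cover counting error only.

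Counts were tested with limma-voom (limma 3.58.1, TMM scaling and low-count filter of edgeR 4.0.16, R 4.3.3) and Benjamini-Hochberg adjustment over all genes tested, per line for drug comparisons and over 16 libraries between lines. Drug comparisons within a line share control libraries. Alternatives were edgeR's quasi-likelihood test, DESeq2 1.42.0, other scalings, no filter, limma-trend on log2(FPKM + 1), a replicate block, a GC correction and leaving out each library. Genes described singly were those called between groups, the most abundant, and the drug efflux pumps. The genes, lists and tests were chosen with earlier results of these data known. Scripts were tested on simulated data. Counts of genes cover all 45, and results of some single genes are not reported here.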

Additional observations from a re-analysis of the deposited data

Results flagged for a closer look

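For 10 responses the difference between the lines passed in the model of 16 libraries (limma-voom, adjusted p over all genes), in genes above 3 counts in both lines. Values are the log2 response in PANC1 minus that in MiaPaCa2.

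For gemcitabine ABCA2 differed by -0.98 (adjusted p = 0.0467), ABCC3 by -0.70 (adjusted p = 0.0282), ABCG2 by -0.99 (adjusted p = 0.0392) and ABCC1 by -0.51 (adjusted p = 0.0429). ABCG2 had at most 29 counts in a MiaPaCa2 library. With the replicate block none of the 4 passed (adjusted p between 0.0526 and 0.0863). None passed in limma-trend on FPKM either (adjusted p between 0.101 and 0.228). These 4 each lost the call without 6 or more of the 8 libraries compared, at adjusted p up to 0.21 for ABCA2, 0.174 for ABCC1, 0.145 for ABCC3 and 0.171 for ABCG2.

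For both drugs, in the contrast added after values had been seen, ABCC2 differed by 1.11 (adjusted p = 0.00133) and passed with each library left out. ABCE1 differed by 1.08 (adjusted p = 0.0211), ABCB9 by -1.27 (adjusted p = 0.0192), ABCC3 by -0.68 (adjusted p = 0.0242), ABCG2 by -1.02 (adjusted p = 0.0337) and ABCA4 by 1.67 (adjusted p = 0.0283) at no more than 26 counts per library. These 5 did not pass with some libraries left out, at adjusted p up to 0.124 for ABCE1, 0.104 for ABCB9, 0.145 for ABCC3, 0.15 for ABCG2 and 0.0983 for ABCA4. MiaPaCa2 control replicate 1 was a library without which each of these 5 was lost. Under the alternatives ABCC2, ABCE1 and ABCB9 kept passing. ABCC3 was lost in limma-trend on FPKM (adjusted p = 0.318), ABCG2 in 3 of 9 alternatives and ABCA4 in 3 of 8. The gemcitabine and both drugs contrasts share control libraries.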

How the results depend on the processing

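Over the 89 changes of singly reported genes, 673 of 797 values under the 9 alternatives kept their direction and side of the threshold, 121 were weaker and 3 reversed. With a library left out 142 of 404 were weaker and 0 reversed. In all, 30 changes passed everywhere. After both drugs in MiaPaCa2 ABCD3 passed the adjusted p at -0.35. The GC correction turned it to 0.22 (adjusted p = 0.0298), and with the replicate block as well to 0.23 (adjusted p = 0.0356). It thus passed in opposite directions, and 7 of the 9 alternatives did not keep the first value. The ABCA4 difference for both drugs turned to -0.035 in limma-trend on FPKM. The causes were not tested.

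Counts of ABC genes can stay the same while the genes called change. For gemcitabine in MiaPaCa2 the count after GC correction stayed at 9. ABCA3 and ABCA5 were among the genes gained there and ABCA7 and ABCB9 among those lost. Of the genes called there without the correction, ABCA2, ABCA7, ABCB9, ABCG1 and ABCC8, all higher, have 64.8, 62.6, 58.4, 55.2 and 51.6% exon GC. ABCC2, ABCC4 and ABCE1, all lower, have 44.3, 42.8 and 35.9%. ABCC1, called lower after both drugs, has 53.8%. The part of GC content in the grouping by role was not tested. Other counts of ABC genes moved as follows. Apart from the adjusted p alone, the shares of all genes given above are not of these settings. Limma-trend on FPKM called 1 for genistein and 1 for both against gemcitabine in MiaPaCa2, 0 for gemcitabine and 3 for both drugs in PANC1, and 3 for the gemcitabine difference. The adjusted p alone gave 22 for both drugs in MiaPaCa2 and 4 and 8 for gemcitabine and both drugs in PANC1. GC correction gave 5, 1 and 4 for gemcitabine, genistein and both against gemcitabine in PANC1, and 9, 2 and 15 for the gemcitabine, genistein and both drugs differences. DESeq2 gave 1 for both against gemcitabine in PANC1 and 9 and 1 for the gemcitabine and genistein differences, edgeR 1 for the genistein difference, and no filter 2 for the gemcitabine difference. Scaling by library size alone gave 1 for gemcitabine in PANC1 and moved the median of all genes there from 0.03 to 0.14, and after both drugs from 0.01 to 0.17.

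Correlations of same-numbered deviations were over 0.1 in 1 of 6 pairs in MiaPaCa2 (-0.299 to 0.155) and 3 of 6 in PANC1 (-0.569 to 0.331). With 2 libraries per group these mixed values cannot settle whether replicate numbers pair the libraries. The replicate block gave 1 for gemcitabine in PANC1 and 1 for the gemcitabine difference, and weakened 19 of the 89 changes. GC correction with the block gave 5, 1 and 3 for gemcitabine, genistein and both against gemcitabine in PANC1 and 8 and 1 for the gemcitabine and genistein differences.

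With 1 library left out, counts in MiaPaCa2 were 6 to 9 for gemcitabine, 1 to 2 for genistein, 11 to 15 for both and 1 to 7 for both against gemcitabine. In PANC1 they were 0 to 4 for gemcitabine, with 0 without either gemcitabine library and 4 without control replicate 2, and 4 to 6 for both. Between the lines they were 16 to 19. They were 1 to 14 for the gemcitabine difference and 3 to 15 for both drugs, both highest without PANC1 control replicate 2, and 0 to 2 for genistein. A lone library is assumed to vary like the other groups.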
